A study of Mus musculus with 2 samples.

Results

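The genes described here make, carry, sense and destroy retinoic acid, the vitamin A derivative that signals between cells of the early embryo. They are 9 genes, Rdh10, Aldh1a2, Dhrs3, Cyp26a1, Stra6, Crabp2, Rara, Rarb and Rarg, chosen by their symbols among the 32285 genes measured, together with every accessibility peak within 50 kb of their transcription starts, which came to 214 of 229480 peaks. The data are 2 libraries from 1 pool of mouse embryos at embryonic day 7.0, the time of gastrulation: nuclear RNA, counted as unique molecules (UMIs), and accessible chromatin, counted as transposase cuts in peaks, read from the same nuclei. No source used here states how many embryos were pooled. The tissue, cell type and strain entries of the labels name small intestine, distal colon, goblet cells and RedMUC298trTg, against the title, the age and the protocol. Of 8 markers of goblet cells and intestinal epithelium, 4 had fewer than 20 UMIs in all kept nuclei (Muc2, the goblet mucin, had 17), and they led 0 of 42 clusters; Vil1, with UMIs in 17.6% of nuclei, was the most abundant. The nuclei are treated below as embryonic.

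Retinol enters cells through the membrane receptor Stra6 and is oxidised first to retinaldehyde by Rdh10 and then to retinoic acid by Aldh1a2. Dhrs3 returns retinaldehyde to retinol, and Cyp26a1 oxidises retinoic acid itself for disposal. Crabp2 carries retinoic acid to the nucleus, where the receptors Rara, Rarb and Rarg bind DNA as partners of the retinoid X receptors. Around gastrulation the pathway is known for a division of labour in space, with Aldh1a2 turned on in mesoderm and Cyp26a1 shielding other tissues from the signal.

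Some genes carry the receptors' own binding element beside their start, so that the signal can act on its own pathway. The element is a direct repeat of a short unit, here searched as AGGTCA, the variant AGTTCA, the variant GGGTCA or the variant GGTTCA, followed after 5, 2 or 1 letters by any of these, on both strands, in RefSeq promoter windows of 300 bases (250 before to 50 after a start, GRCm38.p6). Windows were found for 7 of the 9 genes (16 windows); Rdh10 and Crabp2 had none. A repeat spaced by 5 stood in windows of 2 genes, Rarb and Cyp26a1, and in 32 of all 32851 windows (0.0974%). Repeats spaced by 2 and by 1 stood in 0.268% and 0.222% of all windows and in none of the 16. Each of the 2 matching windows held 1 match, so no matches overlapped there. Both are shown, on the gene's strand with the repeat in capitals, because they hold the element close to a start: the 250 bases before the RefSeq start of Cyp26a1, and 30 bases around the repeat of Rarb.
Rarb: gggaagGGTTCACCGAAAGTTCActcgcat
Cyp26a1: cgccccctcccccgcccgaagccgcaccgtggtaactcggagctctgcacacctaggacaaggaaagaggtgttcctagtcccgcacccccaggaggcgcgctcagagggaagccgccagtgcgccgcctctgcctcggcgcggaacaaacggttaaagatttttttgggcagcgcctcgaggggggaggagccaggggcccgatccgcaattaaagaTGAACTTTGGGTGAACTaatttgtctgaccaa

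The Rarb sequence is chr14:16575506-16575535 on the minus strand, and its repeat, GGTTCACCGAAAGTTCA, lies at chr14:16575513-16575529. That is 53 to 37 bases before the RefSeq start used for the window (chr14:16575476), but 14 to 30 bases after the nearest start in the deposited gene table (chr14:16575543). The Cyp26a1 sequence is chr19:37697558-37697807 on the plus strand, and its repeat lies at chr19:37697776-37697792, from 32 to 16 bases before the RefSeq start (chr19:37697808) and from 22 to 6 bases before the deposited start (chr19:37697798). On the opposite strand the Cyp26a1 repeat reads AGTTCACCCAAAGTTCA. Each repeat lay inside an accessibility peak of this data set. A match of letters is a description of the window and not a measured binding site.

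The matrix held 15341 barcodes, all distinct and of 1 library, with 182201512 RNA UMIs and 273131304 peak counts. The 12796 nuclei kept had a median of 10471 UMIs and 17350 peak counts. To keep the genes from defining the cells they are read in, RNA was read in classes of nuclei clustered on accessibility without the peaks near these genes, and accessibility was read in classes clustered on RNA without these genes. Classes carry the suffix "like" in the sense that marker genes named them. The accessibility-defined classes were epiblast-like (2843 nuclei), visceral endoderm-like (1346), embryonic mesoderm-like (1191), anterior streak, node and definitive endoderm-like (1052, called anterior streak-like below), primitive streak-like (994), extraembryonic ectoderm-like (974), extraembryonic mesoderm-like (457) and haemato-endothelial progenitor-like (304). A further 26 nuclei were parietal endoderm-like, too few to count as a class, and 3609 (28.2%) stayed unnamed. Of all kept nuclei, 6688 (52.3%) had the same name in both assays. Levels are in CPM (counts-per-million), UMIs over all UMIs of the class or peak counts over all its peak counts, with exact Poisson 95% intervals that cover counting error only. A gene or peak is called raised in a class where its level was at least 2-fold that of all other nuclei on at least 20 UMIs or fragments. With 1 library per assay no difference has a replicate check and no test was made. In RNA from a pool of nuclei, embryos that differ in stage or makeup cannot be told apart.

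Of the 9 genes, 6 were raised in at least 1 class: Cyp26a1, Dhrs3, Aldh1a2, Stra6, Rarb and Rarg. Among all 16736 genes with enough UMIs in some class, 34.9% were raised. Visceral endoderm-like nuclei had 3 of the 8 genes with enough UMIs there raised (Cyp26a1, Rarb and Stra6), against 10.0% of all genes in that class. Anterior streak-like nuclei had 2 of 8 (Dhrs3 and Stra6), against 5.38%. Each of the other classes had 1: Rarg in epiblast-like nuclei (background 8.73%), Aldh1a2 in primitive streak-like nuclei (2.67%), Stra6 in embryonic mesoderm-like nuclei (6.51%), Cyp26a1 in extraembryonic ectoderm-like nuclei (8.24%), and Rarb in extraembryonic mesoderm-like (5.5%) and haemato-endothelial progenitor-like nuclei (6.27%). Rdh10, Crabp2 and Rara were raised in none of these accessibility-defined classes. In RNA-defined classes Rdh10 and Crabp2 were raised in visceral endoderm-like and parietal endoderm-like nuclei. Dhrs3 was raised in parietal endoderm-like nuclei too, and Rarg in primordial germ cell-like nuclei. Cyp26a1 (0.709-fold), Rarb (0.40-fold) and Stra6 (0.336-fold) were not raised in RNA-defined visceral endoderm-like nuclei, nor Cyp26a1 in extraembryonic ectoderm-like nuclei (1.88-fold). Of the 181 RNA-defined parietal endoderm-like nuclei, 149 lay in a cluster with the visceral endoderm marker Cubn at 4299 CPM. The other 32 had Cubn at 255 CPM, and accessibility-defined visceral endoderm-like nuclei had 4410 CPM.

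**Figure D1:**
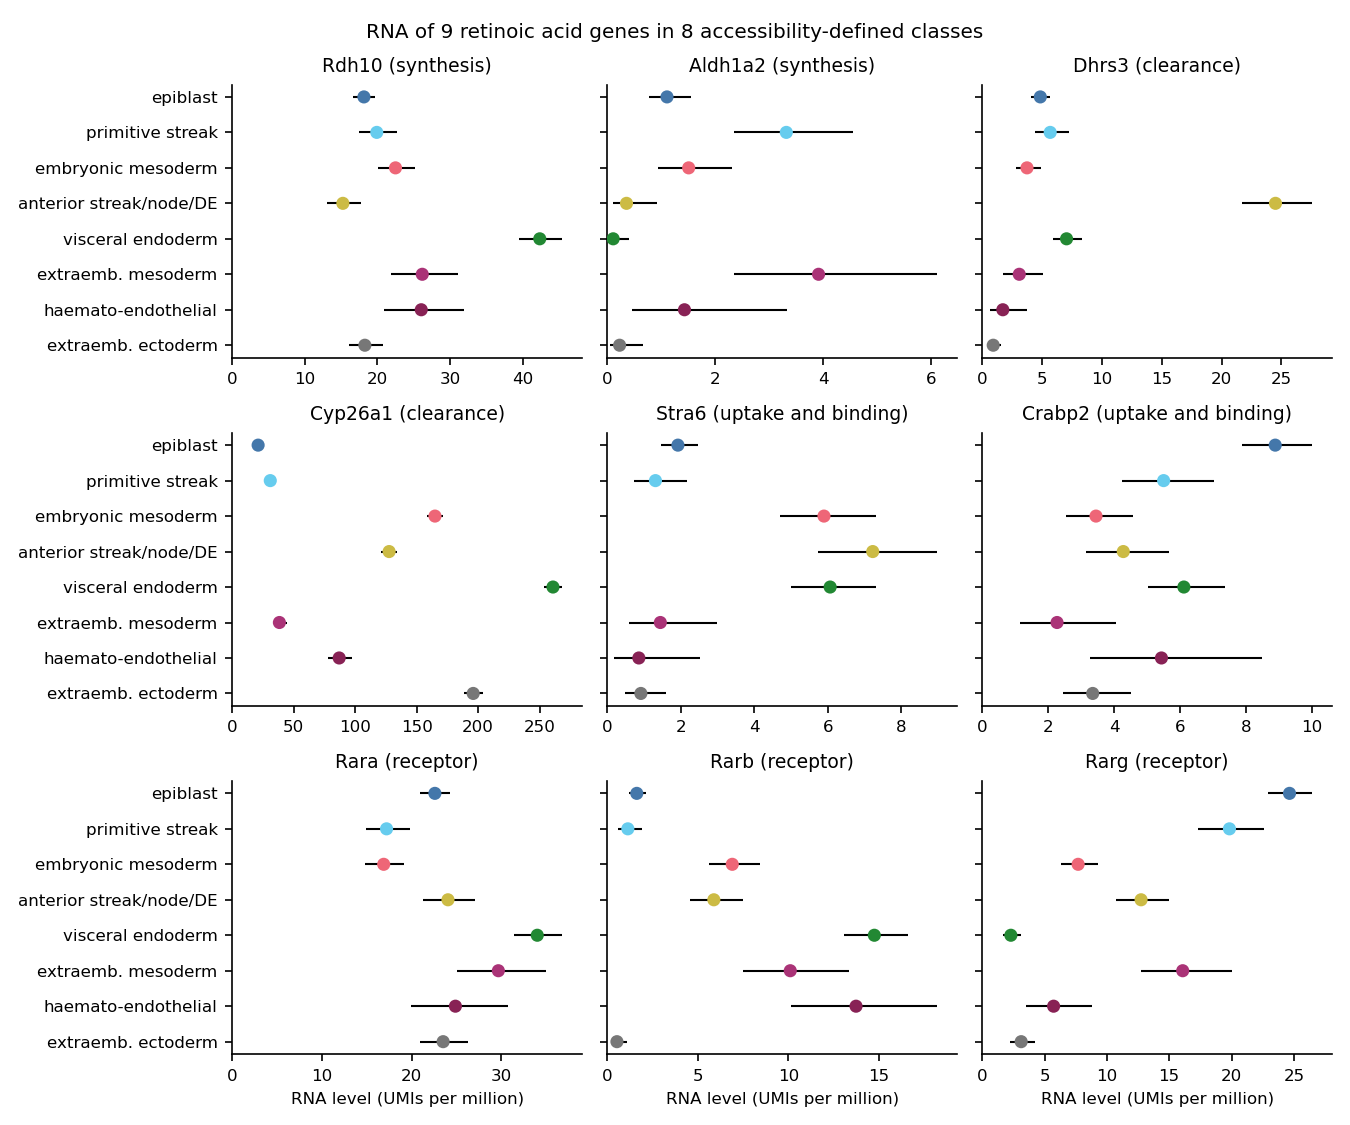
RNA level of each gene (horizontal axis, CPM, each panel on its own scale from 0) in the 8 accessibility-defined classes; points are pooled levels and bars exact 95% Poisson intervals for counting error. Cyp26a1 is lowest in epiblast (21.0) and highest in visceral endoderm (261), Rarg runs the other way (24.7 and 2.29), and Dhrs3 stands out in anterior streak/node/DE (24.5; DE, definitive endoderm).

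Synthesis was read from Rdh10 and Aldh1a2. Rdh10 (ENSMUSG00000025921, start at chr1:16105774) had 3892 UMIs in the kept nuclei, 1 or more of them in 22.1% of nuclei. Its level was highest in visceral endoderm-like nuclei, at 42.4 CPM (39.4 to 45.5), 1.73-fold that of all other nuclei (1.60 to 1.87). The other nuclei include an unnamed cluster of 1070 nuclei led by visceral endoderm genes, in which Rdh10 was higher still, as given below. The other classes lay between 26.2 CPM in extraembryonic mesoderm-like and 15.2 CPM in anterior streak-like nuclei, each with an interval that overlapped its neighbour's in the order. In RNA-defined classes Rdh10 was at 60.8 CPM in visceral endoderm-like nuclei, 2.95-fold all others (2.76 to 3.16), and at 61.7 CPM in parietal endoderm-like nuclei, 2.37-fold (2.0 to 2.77). Over 10 other settings its visceral endoderm fold lay between 1.48 and 2.95. Rdh10 RNA was present in each of the 8 accessibility-defined classes, within a range of 2.78-fold (2.35 to 3.30).

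Aldh1a2 (ENSMUSG00000013584, start at chr9:71215789), the enzyme of the last step of synthesis, was sparse, with 144 UMIs in 116 of the kept nuclei (0.907%). Its level was 3.92 CPM (2.36 to 6.12) in extraembryonic mesoderm-like and 3.32 CPM (2.35 to 4.56) in primitive streak-like nuclei, with overlapping intervals. The first of these rests on 19 UMIs, under the limit for a call, and the second on 38 UMIs, 4.20-fold the level in all other nuclei (2.82 to 6.14). Embryonic mesoderm-like nuclei had 1.51 CPM on 21 UMIs, haemato-endothelial progenitor-like nuclei 1.43 CPM on 5 UMIs and epiblast-like nuclei 1.11 CPM on 34 UMIs. The lowest counts were 4 UMIs in anterior streak-like (0.357 CPM), 3 in extraembryonic ectoderm-like (0.228 CPM) and 2 in visceral endoderm-like nuclei (0.109 CPM, interval 0.0132 to 0.395). The primitive streak was thus the class with a call, the intervals of embryonic mesoderm and haemato-endothelial progenitor overlapped that of epiblast, and at this depth a low level in visceral endoderm could not be told from none.

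Cyp26a1 (ENSMUSG00000024987, start at chr19:37697798), which clears retinoic acid, had 14813 UMIs, in 40.9% of nuclei. The 8 classes spread over 12.4-fold (11.4 to 13.5). Visceral endoderm-like nuclei had 261 CPM, 3.31-fold the level of all other nuclei (3.20 to 3.43), and extraembryonic ectoderm-like nuclei 196 CPM, 2.12-fold (2.03 to 2.22). Embryonic mesoderm-like nuclei followed at 165 CPM, anterior streak-like at 128 CPM and haemato-endothelial progenitor-like at 87.0 CPM. Extraembryonic mesoderm-like (38.3 CPM), primitive streak-like (30.9 CPM) and epiblast-like nuclei (21.0 CPM) were lowest. The intervals of neighbours in this order were apart, except those of extraembryonic mesoderm and primitive streak. So epiblast-like, primitive streak-like and extraembryonic mesoderm-like nuclei had the least Cyp26a1 RNA of these classes. The 3 highest classes were of different origin, an endoderm, a trophoblast derivative and the embryonic mesoderm. The level in extraembryonic mesoderm depended on how the class was defined. In RNA-defined classes it was 65.25 CPM (59.6 to 71.3), apart from the level given above.

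By share of nuclei with a Cyp26a1 UMI the epiblast was again lowest, but visceral endoderm did not stand above the next classes. The exact 95% intervals overlapped: 64.05% to 69.16% in visceral endoderm-like, 67.77% to 73.58% in extraembryonic ectoderm-like and 66.65% to 71.96% in embryonic mesoderm-like nuclei. The share was 66.6% in visceral endoderm-like, 70.7% in extraembryonic ectoderm-like, 69.4% in embryonic mesoderm-like and 18.4% in epiblast-like nuclei, where the median nucleus held 12838, 12153, 11020 and 10274 UMIs. With each nucleus thinned to 5000 UMIs the shares were 49.8%, 51.9%, 51.0% and 9.87%. Cubn, an absorptive receptor of the visceral endoderm, served as a measure of free RNA: its level in the 7 other classes was 1.87% to 2.73% of that in visceral endoderm-like nuclei. The Cyp26a1 level of epiblast-like nuclei was 8.06% of the highest class, above that range. Cubn was high in visceral endoderm-like nuclei alone among these classes and Cyp26a1 in several, so the range need not hold for Cyp26a1. The lowest levels of Rarb (3.61% of its highest class, in extraembryonic ectoderm-like nuclei), Dhrs3 (3.73%) and Aldh1a2 (2.79%) were nearer to the Cubn range. The part of free RNA in any of these levels was not tested.

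Cyp26a1 divided the visceral endoderm-like nuclei. The class joined 1 accessibility cluster of 895 nuclei led by Sfrp5, the gene of a secreted Wnt inhibitor, and 1 of 451 nuclei with Cubn and A1cf among its leading genes. Another cluster of 1070 nuclei, also led by visceral endoderm genes, stayed unnamed because parietal endoderm markers rivalled them. Cyp26a1 was at 331 CPM (322 to 341) in the Sfrp5-led cluster, 68.7 CPM (61.6 to 76.5) in the Cubn-led cluster and 60.2 CPM (56.5 to 64.0) in the unnamed cluster. Rarb followed it, at 19.4, 2.04 and 1.45 CPM in the same order, and so did Stra6, at 7.46, 2.24 and 0.422 CPM. Rdh10 ran the other way, at 37.4, 56.1 and 58.1 CPM, as did Crabp2, at 3.51, 13.3 and 15.4 CPM. For all 5 genes the interval of the Sfrp5-led cluster was apart from those of the other two.

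The class values of Cyp26a1, Rarb and Stra6 moved with which of these nuclei the name visceral endoderm covered. Among RNA clusters the Sfrp5-led cluster (554 nuclei, 464 CPM of Cyp26a1 and 28.6 CPM of Rarb) stayed unnamed, because the anterior streak markers led (mean log2 ratio 1.41) with the visceral endoderm markers close behind (1.19). The RNA-defined visceral endoderm-like class (1653 nuclei) leaves that cluster out. It includes a cluster of 378 nuclei with Sfrp5 at 46.2 CPM, against 121 CPM in the Sfrp5-led RNA cluster. Under 6 of the other settings tried for the classes, Cyp26a1 was not raised in visceral endoderm-like nuclei, with folds down to 0.678, and Rarb fell to as little as 0.359-fold. In each of 12 partitions of the nuclei (6 settings in 2 assays) the cluster highest in Cyp26a1 had Sfrp5 among its 10 leading genes, at 306 to 513 CPM, and so had the cluster highest in Rarb, at 17.2 to 33.4 CPM.

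Dhrs3 (ENSMUSG00000066026, starts between chr4:144892827 and chr4:144893077), which removes retinaldehyde, was highest in anterior streak-like nuclei, at 24.5 CPM (21.7 to 27.6), 5.66-fold the level of all other nuclei (4.89 to 6.55). The next class, visceral endoderm-like, had 7.04 CPM (5.88 to 8.37), and the level fell through neighbours with overlapping intervals to 0.914 CPM in extraembryonic ectoderm-like nuclei. Of the 857 UMIs, 275 lay in the anterior streak-like class. Within it Dhrs3 was at 30.2 CPM (26.2 to 34.5) in the cluster led by Chrd, Foxj1 and cilium genes, as known of the node, and at 15.5 CPM (12.0 to 19.7) in the cluster led by Cer1, the gene of a secreted inhibitor of Nodal and BMP. Dhrs3 and Cyp26a1, the genes that limit retinoic acid, thus had different highest classes. In RNA-defined classes Dhrs3 was raised in parietal endoderm-like nuclei too, at 13.3 CPM on 34 UMIs (2.31-fold, 1.59 to 3.25), and was at 4.04 CPM in visceral endoderm-like nuclei (0.649-fold). The 26 accessibility-defined parietal endoderm-like nuclei had 1 Dhrs3 UMI.

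Stra6 (ENSMUSG00000032327, starts between chr9:58129088 and chr9:58134665), the uptake receptor, was raised in 3 classes whose intervals overlapped: anterior streak-like at 7.22 CPM (2.87-fold, 2.23 to 3.67), visceral endoderm-like at 6.06 CPM (2.51-fold, 2.0 to 3.12) and embryonic mesoderm-like nuclei at 5.89 CPM (2.30-fold, 1.79 to 2.94). The other 5 classes had 0.858 to 1.92 CPM, apart from the upper 3. The RNA-defined visceral endoderm-like class, without the Sfrp5-led cluster, had Stra6 at 1.08 CPM on 24 UMIs, 0.336-fold all others (0.213 to 0.508). By cluster, the Cer1-led cluster had 12.5 CPM (9.39 to 16.3) and the node cluster 3.91 CPM (2.58 to 5.69). The 26 parietal endoderm-like nuclei had 29.6 CPM on 10 UMIs (14.2 to 54.4), the highest level of any cluster and the one on fewest nuclei. The 181 RNA-defined parietal endoderm-like nuclei had Stra6 at 5.47 CPM on 14 UMIs (1.93-fold, 1.05 to 3.28), too few for a call.

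Crabp2 (ENSMUSG00000004885, start at chr3:87948666), the carrier of retinoic acid, ranged over 3.92-fold (2.16 to 7.94) with 1004 UMIs. Epiblast-like nuclei had the highest level, 8.89 CPM (7.87 to 10.0), and extraembryonic mesoderm-like nuclei the lowest, 2.27 CPM (1.13 to 4.06). The 7 classes below epiblast each overlapped the next in order. Its highest clusters were the Cubn-led and the unnamed visceral endoderm clusters described above, and the class value of visceral endoderm (6.12 CPM) joins the Cubn-led with the Sfrp5-led cluster and leaves out the unnamed one. In RNA-defined classes Crabp2 was higher in parietal endoderm-like (23.8 CPM, 3.62-fold, 2.74 to 4.69) and visceral endoderm-like nuclei (12.5 CPM, 2.12-fold, 1.84 to 2.44) than in epiblast-like nuclei (9.30 CPM). Epiblast had the largest Crabp2 fold under 5 of 10 other settings, among them a threshold of 1.5-fold and no minimum count, which leave folds unchanged. The 26 accessibility-defined parietal endoderm-like nuclei had 1 Crabp2 UMI (2.96 CPM, 0.0749 to 16.5).

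Rara (ENSMUSG00000037992, starts between chr11:98927818 and chr11:98960412) is the first of the 3 receptors. Its level ran from 34.0 CPM (31.4 to 36.8) in visceral endoderm-like to 16.9 CPM (14.8 to 19.2) in embryonic mesoderm-like nuclei, a range of 2.01-fold (1.73 to 2.35). In RNA-defined classes Rara ran from 12.9 CPM (10.0 to 16.3) in ectoplacental cone and giant cell-like to 45.3 CPM (37.4 to 54.4) in parietal endoderm-like nuclei. It had 3540 UMIs, and visceral endoderm had its largest fold under 6 of 10 other settings. Among these are a threshold of 1.5-fold and no minimum count, which leave folds unchanged. Rarb (ENSMUSG00000017491, starts between chr14:16575543 and chr14:16575827) had 668 UMIs and the range 27.7-fold (13.2 to 69.5). Its level was 14.7 CPM (4.72-fold, 4.03 to 5.52) in visceral endoderm-like nuclei, where the Sfrp5-led cluster held 260 of the 270 UMIs. Haemato-endothelial progenitor-like nuclei had 13.7 CPM (3.15-fold, 2.30 to 4.23) and extraembryonic mesoderm-like nuclei 10.1 CPM (2.30-fold, 1.68 to 3.08), all 3 with overlapping intervals. Embryonic mesoderm-like (6.90 CPM) and anterior streak-like nuclei (5.88 CPM) followed, and epiblast-like (1.63 CPM), primitive streak-like (1.14 CPM) and extraembryonic ectoderm-like nuclei (0.533 CPM on 7 UMIs) were low. Within the anterior streak-like class the Cer1-led cluster had 12.5 CPM (9.39 to 16.3) and the node cluster 1.74 CPM (0.899 to 3.04).

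Rarg (ENSMUSG00000001288, starts between chr15:102246500 and chr15:102257517) had its highest level in epiblast. Its 1749 UMIs gave 24.7 CPM (22.9 to 26.5) in epiblast-like nuclei, 2.86-fold the level of all other nuclei (2.60 to 3.14), and 19.8 CPM (17.3 to 22.6) in primitive streak-like nuclei. Extraembryonic mesoderm-like nuclei had 16.1 CPM and anterior streak-like nuclei 12.7 CPM, overlapping their neighbours down from primitive streak. Embryonic mesoderm-like (7.69 CPM), haemato-endothelial progenitor-like (5.72 CPM), extraembryonic ectoderm-like (3.12 CPM) and visceral endoderm-like nuclei (2.29 CPM, 1.65 to 3.10) were lowest. In RNA-defined classes Rarg was at 24.8 CPM in epiblast-like (23.0 to 26.8) and 25.3 CPM in primordial germ cell-like nuclei (20.2 to 31.3, on 84 UMIs), where it was 2.17-fold all others (1.72 to 2.70). The share of nuclei with a Rarg UMI was 22.1% in epiblast-like and 2.97% in visceral endoderm-like nuclei, or 11.1% and 1.39% after thinning.

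Among accessibility-defined classes Rarg was highest where Cyp26a1 was lowest and lowest where it was highest, while the classes between did not run in opposite order. Among RNA-defined classes the lower end differed. Rarg was lowest there in visceral endoderm-like nuclei (2.15 CPM), where Cyp26a1 was at 75.5 CPM. Cyp26a1 was highest there in extraembryonic ectoderm-like nuclei (174 CPM), where Rarg was at 3.455 CPM. Across the 19 accessibility clusters of at least 50 nuclei, Pearson's r between the log levels of Rarg and Cyp26a1 was -0.75, the lowest of any pair of the 9 genes. The points share 1 library, and each cluster's total UMIs enter both levels. The highest r among the 9 was 0.68, between Rdh10 and Rara, followed by 0.60 between Rarb and Stra6.

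**Figure D2:**
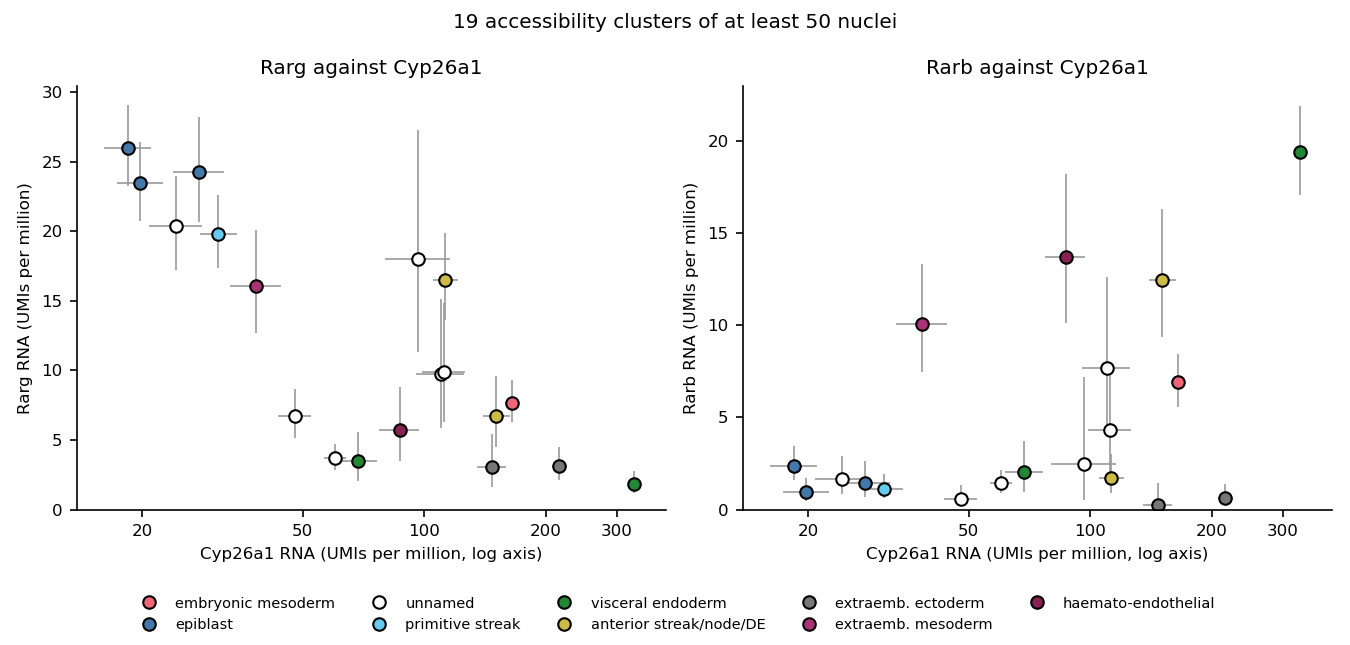
Level of Rarg (left) and Rarb (right) against that of Cyp26a1 (horizontal, log axis), all in CPM, in the 19 accessibility clusters of at least 50 nuclei; colours give the class, white points are unnamed clusters, and bars are exact 95% Poisson intervals. The epiblast clusters combine high Rarg with low Cyp26a1, and the Sfrp5-led visceral endoderm cluster, at 331 for Cyp26a1, has the lowest Rarg (1.86) and the highest Rarb (19.4).

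The genes whose log level over these 19 clusters was most like each member's, among genes with at least 500 UMIs, were named by rule. For Cyp26a1 they were Car2 (r = 0.86), Hpcal1 (0.85) and Zfp267 (0.84), and for Rarg they were Mmp16 (0.96), Trerf1 (0.95) and Rab39b (0.94). For Rarb they were Nrp1 and Arhgap6 (both 0.91) and Itpr2 (0.89), and for Dhrs3 they were Trmt9b, Clip4 and Fam214a (all 0.87). Rdh10 was most like Rabep1, Ndel1 and Ap1ar (all 0.97), Rara most like Rgs3 (0.81), Sgms1 (0.80) and Naaa (0.78), and Crabp2 most like Sema4a and Trim2 (both 0.86) and Acp6 (0.82). Aldh1a2 and Stra6 had too few UMIs for this list.

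Other genes of retinoid metabolism and genes known to respond to retinoic acid were read as a list of 36. Of these, 27 had enough UMIs in some class and 15 were raised in at least 1, against the 34.9% of all genes given above. Embryonic mesoderm-like nuclei had 7 of 25 raised, where 6.51% of all genes were, and extraembryonic mesoderm-like nuclei 5 of 22, where 5.5% were. Meis2, a homeobox gene, was at 519 CPM in embryonic mesoderm-like nuclei, 8.15-fold all other nuclei. Hoxb1, whose enhancers hold retinoic acid response elements, was 7.56-fold higher in extraembryonic mesoderm-like (15.3 CPM) and 6.60-fold higher in embryonic mesoderm-like nuclei (10.6 CPM). Cdx1, another known target, was 4.94-fold and 4.0-fold higher in the same classes, on 24 and 49 UMIs. Embryonic mesoderm-like nuclei also had more Crabp1, a second carrier (3.62-fold), Cyp26c1, a relative of Cyp26a1 (2.86-fold on 29 UMIs), Rxrg, a retinoid X receptor (2.50-fold), and Nrip1, a receptor co-regulator (2.07-fold).

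Visceral endoderm-like nuclei had 5 of 22 listed genes raised (10.0% of all genes), among them genes of retinoid supply. Stra6l, a relative of Stra6, was 4.97-fold higher (10.3 CPM), Bco1, which cleaves carotene, 3.64-fold (8.68 CPM), and Rbp4, the carrier of retinol between cells, 2.91-fold (284 CPM). In extraembryonic ectoderm-like nuclei Meis1, a homeobox gene, was 4.71-fold higher (94.5 CPM). In epiblast-like nuclei 0 of 24 were raised (8.73% of all genes), and in anterior streak-like nuclei 0 of 22 (5.38%). Aldh1a3, the other enzyme able to make retinoic acid with enough UMIs, lay at 9.89 to 17.8 CPM, Rxra at 5.44 to 11.8 CPM and Rxrb at 31.5 to 53.1 CPM. Aldh1a1 and Cyp26b1 had fewer than 20 UMIs in every class.

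The ranges of promoter accessibility and RNA were set side by side in the same 8 accessibility-defined classes; the same ratio was not computed over all genes. The Cyp26a1 promoter ranged over 2.04-fold (1.57 to 2.70), from 13.8 CPM in extraembryonic mesoderm-like to 28.2 in visceral endoderm-like nuclei, where its RNA ranged over 12.4-fold. The Rarg promoters ranged over 2.05-fold against 10.8-fold in RNA, with epiblast highest and visceral endoderm lowest in both. Dhrs3 had 3.44-fold against 26.8-fold, highest in anterior streak and lowest in extraembryonic ectoderm in both. Rarb had 4.47-fold against 27.7-fold, Aldh1a2 1.58-fold against 35.9-fold on 2 UMIs at its lowest, Rdh10 1.5-fold against 2.78-fold, and Crabp2 2.55-fold (2.02 to 3.26) against 3.92-fold, with intervals that overlapped. For Rara the promoters ranged over 2.52-fold (2.15 to 2.96) and RNA over 2.01-fold (1.73 to 2.35), which overlapped too. The only promoter peak of Rdh10 lies at the promoter of Rpl7 as well, and that of Rarb at the promoter of Gm48162. Their promoter ranges may therefore reflect those genes too.

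The Stra6 promoters ranged over 21.5-fold (12.4 to 40.7), from 1.43 CPM in extraembryonic ectoderm-like to 30.8 in embryonic mesoderm-like nuclei, against 8.41-fold (2.78 to 41.6) in RNA, with intervals that overlapped. In RNA-defined classes 1 of the 9 genes, Stra6, had its promoters raised in any class, in embryonic mesoderm-like nuclei (31.6 CPM, 2.77-fold, 2.47 to 3.10), where 2.52% of all promoters were raised. Among all 20983 promoters with enough fragments, 17.3% were raised in at least 1 class. In RNA-defined visceral endoderm-like nuclei the Stra6 promoters were at 2.20 CPM, 0.146-fold all other nuclei (0.101 to 0.204). In accessibility-defined visceral endoderm-like nuclei, which include the Sfrp5-led cluster and had Stra6 RNA raised, the Stra6 promoters were also low, at 3.26 CPM, 0.226-fold all other nuclei (0.160 to 0.310).

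**Figure D3:**
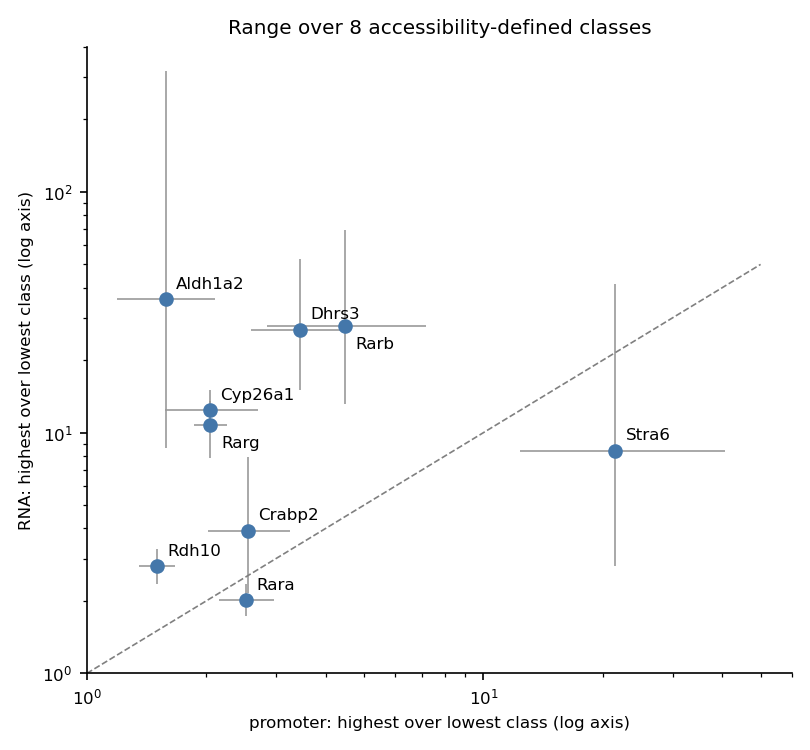
Ratio of the highest to the lowest of the 8 accessibility-defined classes in promoter accessibility (horizontal) and in RNA (vertical), both on log axes, for the 9 genes; bars are exact 95% intervals for counting error and the dashed line marks equal ranges. Cyp26a1 (12.4 against 2.04) and Rarg (10.8 against 2.05) lie above the line; Stra6 (8.41 against 21.5) and Rara (2.01 against 2.52) lie below it, with intervals that overlap between RNA and promoter.

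Of the 214 peaks within 50 kb, 203 had at least 20 fragments in some RNA-defined class and 94 of these (46.3%) were raised in at least 1 class, against 53.3% of all 203717 peaks with as many fragments. As a set the peaks near these genes were not raised more often than peaks at large. Stra6 had the highest share (17 of 23 peaks) and Crabp2 the lowest (5 of 27). The counts were 16 of 27 for Cyp26a1, 10 of 15 for Rarb, 9 of 17 for Dhrs3, 7 of 14 for Rdh10, 6 of 12 for Aldh1a2, 16 of 40 for Rara and 8 of 28 for Rarg. The nearest gene of a peak need not be the gene it acts on, and positions below are distances from the peak's centre to the nearest start of the gene, positive downstream.

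Near Cyp26a1, 1 peak was raised in epiblast-like nuclei, 43614 bp upstream (2.37-fold, 1.83 to 3.05). Extraembryonic ectoderm-like nuclei were highest at the peak 42379 bp downstream (chr19:37739722-37740633), with 29.6 CPM, 5.27-fold all other nuclei (4.57 to 6.06), and at the peak 6053 bp downstream (chr19:37703412-37704290), with 33.4 CPM, 4.24-fold (3.73 to 4.80). Embryonic mesoderm-like nuclei were highest at the peaks 21616 bp (46.5 CPM, 3.55-fold, 3.21 to 3.92) and 7537 bp downstream (5.53 CPM, 4.24-fold) and at that 37983 bp upstream (19.5 CPM, 2.73-fold). Visceral endoderm-like nuclei were highest at the peak 27639 bp downstream (chr19:37724986-37725889), with 15.3 CPM, 6.09-fold (5.08 to 7.29), the largest fold of any Cyp26a1 peak in that class. This RNA-defined visceral endoderm-like class leaves out the Sfrp5-led cluster, and its Cyp26a1 RNA was at 75.5 CPM, 0.709-fold all other nuclei. The promoter levels of these 3 classes lay between 23.1 and 25.6 CPM.

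The same downstream peaks were low in epiblast-like nuclei. Cyp26a1 RNA was at 19.2 CPM (17.6 to 20.9) in this RNA-defined class, which overlapped the lowest level, 18.7 CPM (14.3 to 23.9), in primordial germ cell-like nuclei. There the peak at 21616 bp had 0.946 CPM, 0.0459-fold all other nuclei (0.0293 to 0.0684), that at 42379 bp 1.05 (0.111-fold), that at 18525 bp 2.10 (0.136-fold), that at 6053 bp 2.90 (0.242-fold) and that at 27639 bp 1.19 (0.243-fold). The promoter peak (chr19:37697368-37698272), which holds the repeat shown above, was at 17.9 CPM in the same nuclei, 0.848-fold all others (0.766 to 0.938). Across the 19 accessibility clusters, Pearson's r of the log accessibility of a peak with the log RNA level of Cyp26a1 was 0.82 for the peak at 42379 bp, 0.77 at 18525 bp, 0.74 at 21616 bp and 0.71 at 6053 bp, and 0.26 for the promoter peak. Of the 14 Cyp26a1 peaks with at least 500 fragments 5 had r below 0, among them that 37983 bp upstream (-0.27). In the Sfrp5-led RNA cluster, with the highest Cyp26a1 RNA, peaks of all these sets were raised together: 5.59-fold at 27639 bp (4.45 to 6.97), 3.89-fold at 18525 bp (3.37 to 4.48), 3.12-fold at 42379 bp (2.54 to 3.79) and 2.70-fold at 21616 bp (2.34 to 3.11).

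**Figure D4:**
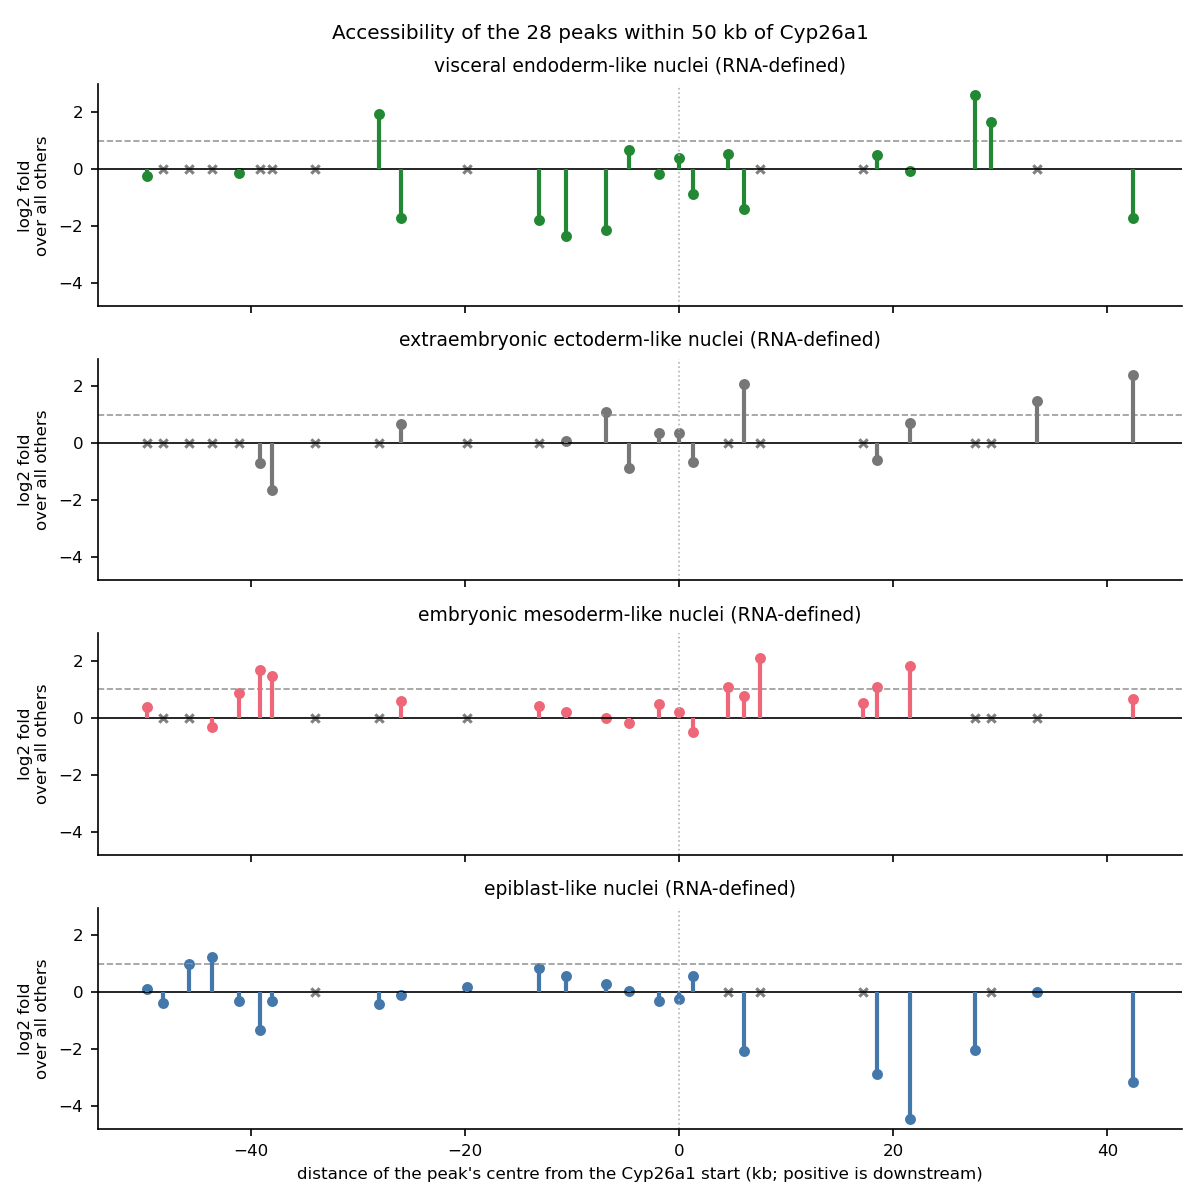
Log2 fold of accessibility over all other nuclei (vertical) for the 28 peaks within 50 kb of Cyp26a1, placed by distance from its start (horizontal, kb), in 4 RNA-defined classes; the dashed line is 2-fold and grey crosses are peaks under 20 fragments in the class, drawn at 0. The peaks 6.05, 18.5, 21.6, 27.6 and 42.4 kb downstream lie below 0 in epiblast, while visceral endoderm, extraembryonic ectoderm and embryonic mesoderm each rise at a different choice of peaks.

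The Rarb promoter was low in some classes with little Rarb RNA and not in others, and its distal peaks differed by class. In RNA-defined extraembryonic ectoderm-like nuclei (0.740 CPM of Rarb RNA) the promoter was at 0.363-fold all others (0.263 to 0.488), and in ectoplacental cone and giant cell-like nuclei (0 UMIs, interval up to 0.679 CPM) at 0.441-fold (0.256 to 0.709). Its promoter peak (chr14:16575133-16576031), which overlaps the promoter of Gm48162 as well, was at 12.5 CPM in epiblast-like nuclei, 1.18-fold all others (1.04 to 1.34). The peak 5740 bp downstream (chr14:16569355-16570251) was 9.63-fold higher in haemato-endothelial progenitor-like nuclei (6.96 to 13.1), and that 22536 bp upstream was 4.65-fold higher there (3.50 to 6.08) and 3.16-fold higher in RNA-defined visceral endoderm-like nuclei (2.64 to 3.78), in which Rarb RNA was at 2.02 CPM, 0.40-fold all others, and the promoter peak at 0.557-fold. The peak 12180 bp upstream was 8.08-fold higher in anterior streak-like nuclei (5.85 to 11.1). In the Sfrp5-led RNA cluster Rarb peaks were raised 11.8-fold at 21050 bp (8.40 to 16.5), 8.67-fold at 28947 bp upstream, 8.02-fold at 12180 bp upstream, 6.64-fold at 12236 bp and 5.29-fold at 2591 bp (38.6 CPM, 4.51 to 6.18). The promoter peak was at 1.30-fold in that cluster (1.02 to 1.64).

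Near Rarg the peaks raised in epiblast-like nuclei were those 2919 bp (chr15:102243163-102244000, 17.2 CPM, 2.56-fold, 2.27 to 2.89) and 3744 bp downstream (2.41-fold, 2.05 to 2.82), and the peak 1486 bp upstream was 2.05-fold higher in primitive streak-like nuclei (1.74 to 2.39). Over the 19 clusters r with Rarg RNA was 0.80 and 0.79 at 2 of its 3 promoter peaks and 0.41 at the one with most counts. Over the 16 Rarg peaks with at least 500 fragments r ran from -0.64 to 0.83, and over the 14 such peaks near Cyp26a1 from -0.62 to 0.82. The spread of r for peaks at large was not computed. These r values describe points that share 1 library and each cluster's depth.

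For the other genes, the peak with the largest fold was taken in the RNA-defined class that shares its name with the accessibility-defined class of highest RNA. Within RNA-defined classes themselves, Rdh10, Rara and Crabp2 were highest in parietal endoderm-like nuclei (61.7, 45.3 and 23.8 CPM) and Aldh1a2 in primitive streak-like nuclei (2.72 CPM). Most of those parietal endoderm-like nuclei lay in the cluster with 4299 CPM of Cubn. Dhrs3 had the peak 3336 bp downstream (chr4:144895964-144896862), at 23.4 CPM in anterior streak-like nuclei, 4.57-fold all others (3.88 to 5.36). Rdh10 had the peak 6573 bp downstream (chr1:16111910-16112784), at 9.08 CPM in visceral endoderm-like nuclei, 17.6-fold (12.8 to 24.5), while its promoter peak, shared with Rpl7, was 1.35-fold higher there. Rara had the peak 22935 bp upstream (chr11:98904477-98905290), 5.48-fold higher in visceral endoderm-like nuclei (4.65 to 6.45), while the promoter peak with most counts was at 1.01-fold. Aldh1a2 had the peak 46851 bp downstream, 9.13-fold higher in extraembryonic mesoderm-like nuclei (5.10 to 15.9) on 21 fragments. A better counted Aldh1a2 peak, 14408 bp downstream (chr9:71229745-71230650), was 5.49-fold higher in the same class (4.25 to 7.02), with the promoter peak at 1.09-fold.

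Crabp2 had the peak 25892 bp downstream (chr3:87974105-87975011) at 54.3 CPM in epiblast-like nuclei, 1.97-fold (1.84 to 2.11) and so just short of a call. The largest fold near Crabp2 was 15.9-fold (12.8 to 19.6) in haemato-endothelial progenitor-like nuclei, 47171 bp upstream, a class in which Crabp2 RNA was at 3.81 CPM, 0.547-fold all others (0.29 to 0.939), on 13 UMIs. Stra6 had the peak 24208 bp downstream, at the promoter of Islr, 4.94-fold higher in anterior streak-like nuclei (3.48 to 6.92), beside a promoter peak at 0.979-fold. In embryonic mesoderm-like nuclei the Stra6 peaks 21344, 32313 and 29028 bp upstream were higher by 5.14-fold, 4.62-fold and 3.34-fold, and both promoter peaks by 2.87-fold and 2.61-fold.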

How the data were processed

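Nuclear RNA and accessible chromatin were measured in the same nuclei, 1 library per assay, from pooled mouse embryos at day 7.0. The deposited matrix holds counts as the authors' pipeline wrote them: UMIs per gene and transposase cut counts per peak, processed with Cell Ranger ARC 2.0.0 on mm10, per the submitters' processing notes. Of nonzero peak values 86.4% were even, so fragments were taken as counts divided by 2, rounded up. Whether counting used strand, and how peaks were called, was not given in the sources used here.

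Nuclei were kept from 1000 UMIs, 500 genes and 1000 peak counts upward where mitochondrial RNA made up no more than 20%, and 1154 barcodes (7.52%) were removed as doublet calls (Scrublet in scanpy 1.11.5, expected rate 0.1), which left 12796 of 15341. RNA was clustered on 2000 variable genes without the 9 genes, and accessibility on peaks found in at least 50 nuclei without those within 50 kb of them, each on 30 components with 15 neighbours and Leiden resolution 1 (leidenalg 0.10.2, scikit-learn 1.9.0). A cluster was named where its marker list had a mean log2 ratio of at least 0.5, at least 3 markers raised 1.5-fold on 50 UMIs, and no rival list. It stayed unnamed where another list had more markers among its 10 leading genes, or where depth was low and no marker led. By the former, accessibility clusters of 759 and 631 nuclei stayed unnamed, although epiblast and extraembryonic ectoderm markers scored highest in them. This scoring rule was set after the data were seen. The primordial germ cell-like class had none of its markers among its 10 leading genes. The same held for the primitive streak-like class in both assays, every accessibility-defined epiblast-like cluster and the Sfrp5-led visceral endoderm-like cluster. Classes under 50 nuclei were not counted, and unnamed clusters stayed among all other nuclei. Peaks within 1000 bp before to 100 bp after a start were taken as promoter peaks. Strand came from the RefSeq promoter table (GRCm38.p6) or, where that table lacks a gene, from whichever end of its RefSeq entry lay closer to the deposited start; it stayed undecided for 6408 genes, whose promoter was 1000 bp on each side.

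Intervals are exact, Poisson for levels and conditional binomial for folds, at 95%, and cover counting error only (numpy 2.4.6, scipy 1.17.1, pandas 2.3.3; figures with matplotlib 3.10.9). Scripts were tested on simulated data. Correlations used log2 levels with a pseudocount of 1 for RNA and 0.1 for peaks. The text names every member, genes of the pathway list, the 3 genes most like each member, and, for each member, the promoter peak with most counts and the peak with the largest fold in the class of its highest RNA. Some listed genes that were raised are counted but not reported here by name. Other peaks, clusters and pathway genes named were chosen after their values were seen. The members and lists were chosen with earlier results of these data known. Alternatives tried were a stricter filter of 2000 UMIs, doublet calls kept, resolution 0.5 and 2, 20 components, classes from the same assay or named alike in both, a threshold of 1.5-fold, no minimum count, a distance of 100 kb, a wider promoter, thinning to 5000 UMIs and, chosen after seeing the data, only other named classes as reference.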

Additional observations from a re-analysis of the deposited data

How the results depend on the processing

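The folds of Dhrs3 in anterior streak-like (5.50 to 5.92) and Rarg in epiblast-like nuclei (2.61 to 3.14) kept their class over 10 other settings each. So did that of Aldh1a2 in primitive streak-like nuclei (3.42 to 4.67), with classes under 20 UMIs left out under every setting. In the classes reported, Aldh1a2 was at 4.41-fold in extraembryonic mesoderm-like nuclei on 19 UMIs, so its place there depends on that limit. In RNA-defined classes Aldh1a2 was at 2.48-fold in extraembryonic mesoderm-like nuclei on 17 UMIs, below the 3.42-fold of primitive streak-like nuclei. Over all 9 genes, 59 of the fold values under other settings stayed within the counting interval of the reported value, 21 left it and 10 changed direction. Those that changed direction were of Cyp26a1 and Rarb in visceral endoderm-like nuclei. The 59 include the folds at a threshold of 1.5-fold and without a minimum count, settings that change calls only and leave every fold as reported. Each tally out of 10 settings includes them too. Crabp2 kept epiblast as its class of largest fold in 5 of 10 settings and Rara visceral endoderm in 6 of 10, and the visceral endoderm fold of Rdh10 lay between 1.48 and 2.95. Cyp26a1 was at 0.984-fold under the stricter filter, 0.678 with doublet calls kept, 0.78 at resolution 2, 0.891 with 20 components, 0.709 in classes from RNA itself and 0.97 in nuclei named alike in both assays. Rarb was at 0.359-fold with doublet calls kept, 0.587 at resolution 2, 0.40 in classes from RNA itself and 0.808 in nuclei named alike. With doublet calls kept and at resolution 2 the Sfrp5-led accessibility cluster stayed unnamed, and so outside the class. Of the counts of raised genes, promoters and peaks, 41 stayed within 1.5 times and 3 did not. At a threshold of 1.5-fold 2 of 9 promoters (41.5% of all promoters) and 143 of 203 peaks (76.1% of all peaks) were raised, and within 100 kb 168 of 359 peaks (53.3% of all peaks, at 2-fold). No analysis paired by embryo or replicate was possible because each assay had 1 library, although both assays were read from the same nuclei. Depth limits Aldh1a2 most: 3 of its 8 class levels rest on fewer than 5 UMIs.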

Other observations

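Of the 116 nuclei with an Aldh1a2 UMI, 42 also had a Cyp26a1 UMI (36.2%, exact 95% interval 27.5 to 45.7). The share was 40.9% of the 12680 nuclei without an Aldh1a2 UMI, which lies inside that interval. The median depths were 13027 and 10450 UMIs. Within primitive streak-like nuclei the shares were 27.59% of 29 (12.73 to 47.24) and 24.97%. Within epiblast-like nuclei they were 19.23% of 26 (6.555 to 39.35) and 18.42%. The lower pooled share of nuclei with Aldh1a2 was thus not seen within either class. Of the 477 nuclei with a Rarb UMI, 61.6% (57.1 to 66) had a Cyp26a1 UMI, against 40.1% of those without, at median depths of 13209 and 10364 UMIs. Within visceral endoderm-like nuclei the shares were 88.6% of 158 (82.6 to 93.1) and 63.7%, at median depths of 16874 and 12257 UMIs. In other classes they lay closer together or the other way round: 71.6% and 69.2% in embryonic mesoderm-like, 62.7% and 52.9% in anterior streak-like, 27.3% and 18.3% in epiblast-like, 25.6% and 28.2% in extraembryonic mesoderm-like and 39.5% and 49.6% in haemato-endothelial progenitor-like nuclei, on 38 to 74 nuclei with a Rarb UMI each. In visceral endoderm-like nuclei the excess was not particular to Rarb. Of 40 nuclei with a Rarg UMI there 85.0% had a Cyp26a1 UMI, against 66.08% of those without. Of 106 with a Dhrs3 UMI 78.3% had one, against 65.65%. The parts of depth and of the clusters joined in that class were not tested.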
